A study of Mus musculus with 6 samples.

Results

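The potassium channel genes of the mouse were followed in cultured smooth muscle cells of the mouse pulmonary artery (mPASMCs) in which the long noncoding RNA *Snhg18* was knocked down. Members were the protein-coding genes whose symbol starts with *Kcn*, followed by lower-case letters and a number, which gave 93 genes of the 55487 in the count table. By the subunit they encode, 40 were voltage-gated, 15 inward rectifier, 14 two-pore, 8 calcium-activated (with the related sodium-activated and pH-sensitive pores) and 16 accessory. The cells were purchased primary mPASMCs, transfected either with a negative control siRNA (si-NC, 3 libraries) or with an siRNA against *Snhg18* (si-*Snhg18*, 3 libraries), and no untransfected sample was part of the comparison. The libraries are numbered 1 to 3 in each group, and the oxygen level and the time after transfection are not given for them in the sources used here. Since bulk RNA was sequenced, fewer cells of a type and less RNA per cell cannot be told apart, and since nothing states that the libraries came from separate cultures, the p-values measure only the spread between these libraries.

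Potassium channels let potassium leave the cell and so hold the membrane of a smooth muscle cell at a negative voltage, which keeps voltage-gated calcium channels shut and the vessel relaxed. Voltage-gated channels open on depolarization, inward rectifiers and two-pore channels carry current near the resting voltage, and calcium-activated channels open when cytosolic calcium rises. Accessory subunits form no pore of their own but change the gating, surface level or drug response of the pores they join. Loss of potassium current in pulmonary artery smooth muscle is a textbook feature of hypoxic vasoconstriction and of pulmonary hypertension.

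The libraries held 18097718 (si-*Snhg18* 3) to 25988746 (si-*Snhg18* 1) counted reads. *Snhg18* itself fell from 22.7 ± 0.711 CPM (counted reads scaled to a common library size, CPM, normalized by TMM; SD, n = 3) in si-NC to 10.6 ± 0.59 CPM in si-*Snhg18*, a log2 fold change of -1.10 (SE 0.10) with an adjusted p of 0.00727 in edgeR's quasi-likelihood test. The libraries numbered 2 stood apart in both groups: on the first principal component of log2 CPM, si-NC 2 scored -51.9 against -6.8 and -0.299 for the other si-NC libraries, and si-*Snhg18* 2 scored -32.5 against 55.4 and 36.1. For that reason each result is also given from a fit with the library number as a block and from a fit without both libraries numbered 2, wherever these change it. All 8 smooth muscle markers passed the filter on low counts, with a summed level of 1750 to 1900 CPM in si-NC and 1200 to 1850 CPM in si-*Snhg18*. Of the 8, 1 fell (*Tagln*), and 4 of the 8 with the block. Over all 14531 tested genes, to be read beside this and the other marker lists, 3.71% were called lower without the block and 13.6% with it. The 6 pericyte markers summed to 430.0 to 539 CPM in si-NC and 318 to 483 CPM in si-*Snhg18*, with *Higd1b* at 0 reads, *Notch3* called lower, and 2 of 5 tested lower with the block. The 6 fibroblast markers summed to 487 to 561 against 360.0 to 466 CPM, with 0 of 4 tested called and 1 lower with the block. Endothelial markers summed to 12.4 to 14.0 against 13.3 to 15.4 CPM (0 of 4 tested called, 1 lower with the block), leukocyte markers to 7.23 to 10.5 against 6.0 to 12.1 CPM with *Cd3e* at 0 (0 of 2 tested called in either fit), and epithelial markers to 0.0432 to 0.254 against 0.0384 to 0.317 CPM with *Sftpc*, *Krt5* and *Scgb1a1* at 0 (none of the 6 was tested). Neuronal and glial markers summed to 13.2 to 31.8 CPM in si-NC and 5.26 to 26.1 CPM in si-*Snhg18*, where 0 of 2 tested were called and 1, *Tubb3*, was lower with the block. The part these lists play in the channel results was not tested.

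Most potassium channel genes were barely read in these cells. Of the 93 members, 21 had no read in any library and 44 had at most 3 reads in any library. The filter on low counts left 29 for testing, 12 voltage-gated, 4 inward rectifier, 4 two-pore, 3 calcium-activated and 6 accessory, and the 64 members left out had at most 56 reads in any library. A single library shows nothing below 3 reads, or 0.115 to 0.166 CPM. Compared per kilobase of exon (CPM per kb, mean of the 6 libraries), the accessory subunits *Kcne4* (17.8) and *Kcnab1* (11.7) stood highest, and the pores below them included *Kcnk2* (5.82), *Kcnj15* (5.42), *Kcnn4* (5.04) and, among the voltage-gated pores, *Kcna3* (2.09). In the si-NC libraries alone the order was another, with *Kcnab1* (14.3) above *Kcne4* (13.3), and *Kcnj15* (6.77) above *Kcnn4* (5.42) and *Kcnk2* (5.13). The order also depends on the exon length. For *Kcnab1* the deposited length is 1635 bases and the union of its exons in GENCODE vM21 is 8593 bases, with which its level was 2.22 CPM per kb and its rank 5 instead of 2. With the vM21 lengths *Kcnn4* stood at 1.92 CPM per kb, below *Kcna3*, and *Kcnk2* at 3.69, below *Kcnj15* at 4.40.

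**Figure D1:**
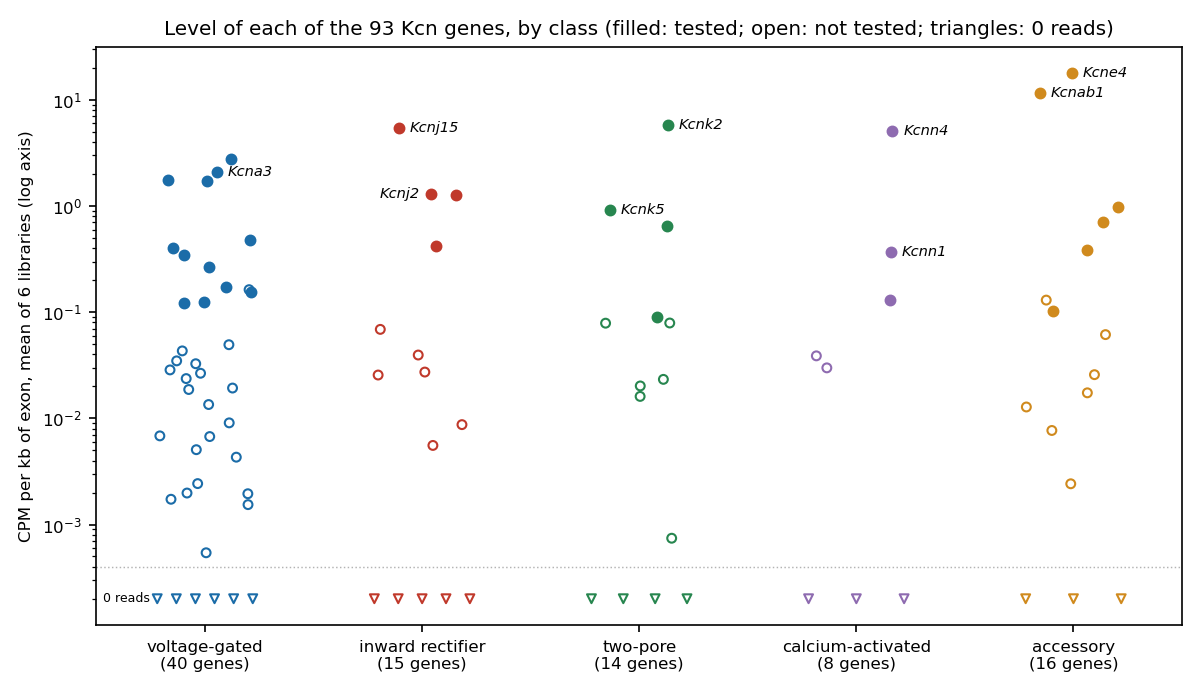
Each symbol is 1 of the 93 *Kcn* genes, placed by class on the x axis and by its mean level over the 6 libraries in CPM per kb of exon on the y axis (log axis). Filled symbols are the 29 tested genes, open symbols the genes left out by the filter and triangles under the dotted line the 21 genes with 0 reads, and some of the highest genes of each class are named, *Kcne4* at 17.8 leading.

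With si-*Snhg18*, 4 channel genes rose and none fell past the threshold. Of the 29 tested members these were 13.8%, among them *Kcnc2*, *Kcnh1* and *Kcne4*, where 7.36% of all 14531 tested genes were called (3.65% higher and 3.71% lower). With the block, 9 members were called (31.0%, 6 higher and 3 lower) against 27.2% of all genes (13.6% higher and 13.6% lower), the added ones including *Kcnk2* higher and *Kcnj15*, *Kcnj8* and *Kcnab1* lower. Without both libraries numbered 2, 8 of the 30 members tested in that fit were called, while the background was 27.6% of all genes. Among the 8 was *Kcnk3*, which is outside the 29. The groups did not overlap in CPM for 9 of 29 members (31.0%) and for 30.9% of all genes, so by that measure the members stood at the background. The median log2 fold change was -0.02 over the tested members and 0.01 over all tested genes. The calls rest on all of the libraries: leaving out si-NC 1, si-NC 2, si-NC 3, si-*Snhg18* 1 or si-*Snhg18* 3 left 0 members called, with 0 to 319 calls over all genes, and leaving out si-*Snhg18* 2 gave 8 members. Of the 29, 6 passed the filter through 1 group only, among them *Kcnc2*, which passed only through si-*Snhg18*.

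**Figure D2:**
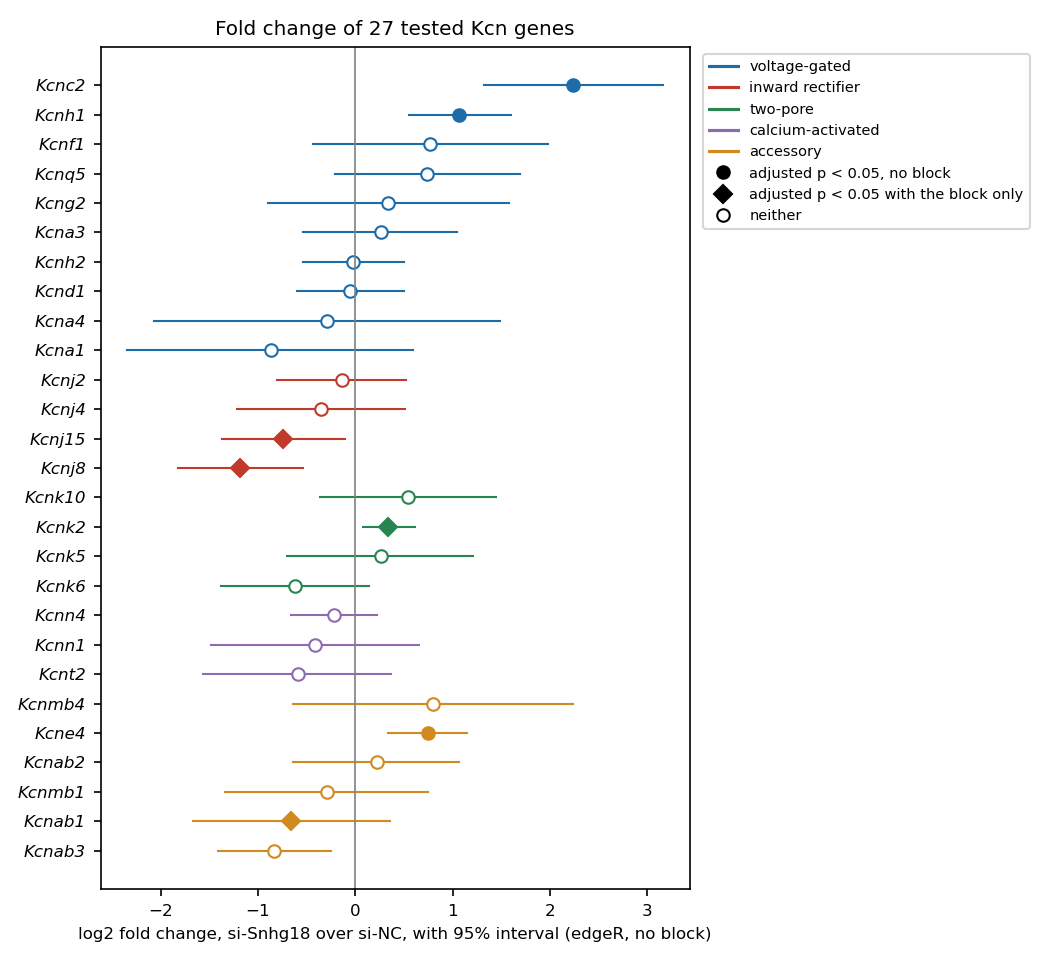
Each line is 1 of 27 of the tested genes, with the log2 fold change of si-*Snhg18* over si-NC on the x axis, its 95% interval from edgeR without the block, and a colour for the class. Filled circles are genes called without the block, diamonds genes called only with it, and open circles the rest; the voltage-gated calls lie to the right of 0 and both inward rectifier diamonds to the left.

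Among the voltage-gated members, 3 of 12 tested rose and none fell, and 4 were higher and none lower with the block. Of the 12, 8 had a fold change above 0 (median log2 0.54), beside 7384 of all 14531 tested genes. Since 5 of the 12 passed the filter through 1 group only, the filter bears on that count. No direction of the class is read from it. *Kcnh1* (ENSMUSG00000058248, chr1:192190774-192510159, plus strand), an ether-a-go-go pore studied for its link with cell division, measured 1.77, 2.21 and 1.61 CPM in si-NC and 3.88, 3.54 and 4.38 CPM in si-*Snhg18*. It rose by 1.07 on the log2 scale (SE 0.22, 2.11-fold), without overlap, with an edgeR adjusted p of 0.0377, 0.0166 with the block and 0.0223 to 0.171 when 1 library was left out. The 2-sided exact permutation test of this gene alone gave p = 0.1, the smallest it can give with 3 libraries a group. *Kcnc2* (ENSMUSG00000035681, chr10:112271121-112467024, plus strand) encodes a fast delayed rectifier best known from fast-firing neurons, and it was close to the limit of detection: 7, 4 and 4 reads in si-NC against 22, 31 and 18 reads in si-*Snhg18*. No si-NC library passed the filter for this gene, so it could be tested only because si-*Snhg18* was high. Its log2 fold change was 2.24 (SE 0.38, edgeR adjusted p 0.025, 0.0124 with the block, 0.0251 to 0.13 when 1 library was left out). DESeq2 gave no adjusted p for it. The 250 bases before the RefSeq start (GRCm38) are shown for these genes because both rose, for *Kcnc2* from the one of its 4 windows nearest to the deposited gene start. Capitals mark a match to the letters GGGCGG on either strand, a GC box core, and the last 3 bases of the *Kcnh1* window lie inside the deposited gene:
Kcnh1 (chr1:192190527-192190776, plus strand): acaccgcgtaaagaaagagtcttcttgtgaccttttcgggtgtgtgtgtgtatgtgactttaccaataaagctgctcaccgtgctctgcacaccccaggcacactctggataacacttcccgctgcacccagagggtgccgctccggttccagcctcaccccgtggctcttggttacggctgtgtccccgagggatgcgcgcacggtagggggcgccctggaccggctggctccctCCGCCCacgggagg
Kcnc2 (chr10:112270871-112271120, plus strand): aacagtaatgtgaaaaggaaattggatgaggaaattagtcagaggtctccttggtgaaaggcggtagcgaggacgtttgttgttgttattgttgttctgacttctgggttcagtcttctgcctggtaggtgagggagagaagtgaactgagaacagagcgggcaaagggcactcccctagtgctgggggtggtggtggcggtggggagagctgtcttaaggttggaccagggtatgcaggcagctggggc
The *Kcnh1* window holds 1 such match and that of *Kcnc2* none, and 32.7% of 32851 promoter windows hold at least 1. Neither window holds ACGTG (hypoxia response core, 16.6% of windows), TGANTCA (AP-1 site, 6.75%) or a CArG box (1.47%). In the window of *Kcne4*, an accessory gene that also rose, the single stretch CACGTG, which reads the same on both strands, gives 2 matches to ACGTG. The window is not printed because 153 of its bases lie inside the deposited gene, and that stretch is among them.

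Among voltage-gated pores that did not pass the test in either fit, *Kcnq5*, a slowly opening channel of vascular muscle, had a log2 fold change of 0.74 (adjusted p 0.302). *Kcna3*, a delayed rectifier known from lymphocytes and growing muscle cells, had 0.26 (0.678), and *Kcnh2*, the cardiac rapid delayed rectifier, had -0.02 (0.972, 95% interval -0.54 to 0.50). Several pores known from the pulmonary artery were at the floor. *Kcna5*, an oxygen-sensitive delayed rectifier, had 1, 2 and 5 reads in si-NC and 0, 4 and 0 in si-*Snhg18*. *Kcna2* had 0 to 2 reads and *Kcnq1* 0 to 5, and *Kcnq1* shares 121 exon bases with *Kcnq1ot1* on the other strand (116 to 172 reads), whose reads may be divided between them. These genes were not tested. Their change was not detectable at this depth.

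**Figure D3:**
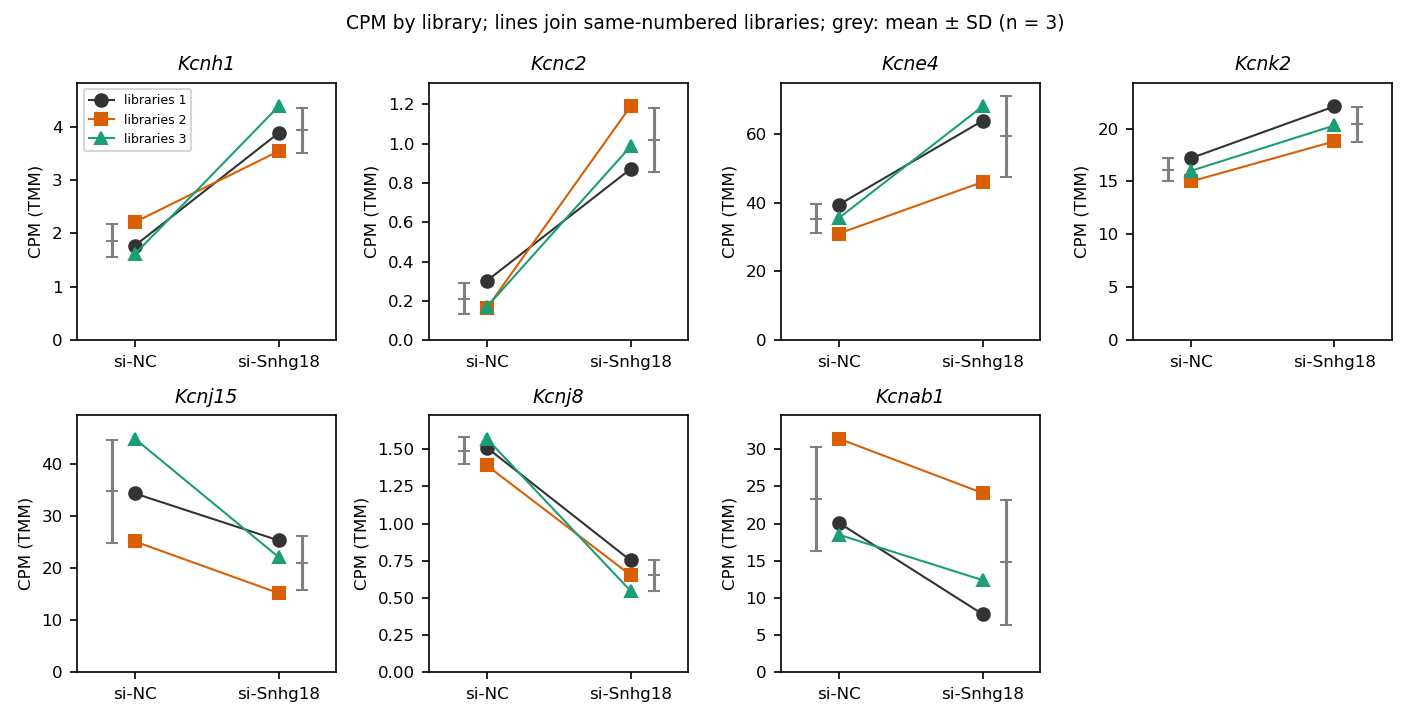
CPM (TMM) on the y axis for 7 of the genes called in either fit, from 0, in si-NC and si-*Snhg18* on the x axis, with a line joining the libraries of each number and grey bars for mean ± SD (n = 3). All lines rise for *Kcnh1*, *Kcnc2*, *Kcne4* and *Kcnk2* and fall for *Kcnj15*, *Kcnj8* and *Kcnab1*, and *Kcnab1* is highest in library 2 of each group.

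Of the inward rectifiers, 0 of 4 tested members were called without the block, and 2 of the 4 were lower with it. All 4 had a fold change below 0 (median log2 -0.54, *Kcnj2* reaching 0.02 without si-*Snhg18* 2). Among all 14531 tested genes 7147 did, and no direction of the class is read from 4 members. *Kcnj8* (ENSMUSG00000030247, chr6:142564837-142571614, minus strand) encodes the pore of the vascular ATP-sensitive channel, which couples metabolism to membrane voltage. It measured 1.51, 1.39 and 1.57 CPM in si-NC and 0.752, 0.654 and 0.548 CPM in si-*Snhg18*, without overlap. The log2 fold change was -1.18 (SE 0.27, 44.2% of si-NC), with an edgeR adjusted p of 0.0506, just outside the threshold, 0.035 with the block, 0.0559 without both libraries numbered 2 and 0.0497 to 0.205 when 1 library was left out. DESeq2 gave 0.0263 without the block and 0.126 with it. *Abcc9*, the sulfonylurea receptor of that channel, was named here after its values were seen. It had few reads, 9, 14 and 17 in si-NC and 6, 11 and 4 in si-*Snhg18*, and the groups overlapped. Its log2 fold change of -0.90 did not pass the test (edgeR adjusted p 0.264). *Kcnj15* (ENSMUSG00000062609, chr16:95257558-95300260, plus strand), an inward rectifier better known from epithelia and the inward rectifier with the highest level per kilobase, measured 34.3, 25.1 and 44.8 CPM in si-NC and 25.3, 15.2 and 22.1 CPM in si-*Snhg18*. The groups overlapped only in that si-NC 2 lay below si-*Snhg18* 1. Its log2 fold change was -0.74 (SE 0.26, edgeR adjusted p 0.151, 0.00568 with the block and 0.0109 without both libraries numbered 2). *Kcnj2*, the strong rectifier that sets the resting voltage in muscle, had -0.14 (adjusted p 0.788). The windows of the 2 rectifiers that were lower with the block are shown because they moved together, and neither holds any of the 4 motifs:
Kcnj8 (chr6:142571615-142571864, minus strand): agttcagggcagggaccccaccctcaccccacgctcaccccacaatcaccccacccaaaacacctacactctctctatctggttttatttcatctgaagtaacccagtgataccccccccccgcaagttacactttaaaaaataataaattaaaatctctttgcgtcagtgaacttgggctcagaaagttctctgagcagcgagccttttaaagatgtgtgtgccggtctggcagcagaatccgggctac
Kcnj15 (chr16:95257308-95257557, plus strand): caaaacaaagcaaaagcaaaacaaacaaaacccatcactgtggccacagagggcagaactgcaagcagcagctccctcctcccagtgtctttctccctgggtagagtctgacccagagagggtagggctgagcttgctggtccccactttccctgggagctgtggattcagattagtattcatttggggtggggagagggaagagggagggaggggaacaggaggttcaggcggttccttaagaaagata

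Two-pore channels carry background potassium current. *Kcnk2* (ENSMUSG00000037624, chr1:189207930-189402273, minus strand), a channel opened by stretch and lipids and the leading member of its class (71.1 to 85.6% of the class's level per kilobase), measured 17.2, 15 and 16 CPM in si-NC and 22.1, 18.8 and 20.3 CPM in si-*Snhg18*. The values did not overlap but the step was small, a log2 fold change of 0.34 (SE 0.11, 1.27-fold), with an edgeR adjusted p of 0.117, 0.0329 with the block, 0.0961 in DESeq2 with the block and 0.0534 without both libraries numbered 2. *Kcnk5*, an acid-sensitive channel, had 0.26 (adjusted p 0.734), and *Kcnk6* had -0.62 (0.283), with groups that did not overlap. *Kcnk3*, the acid-sensitive channel whose variants are linked to heritable pulmonary hypertension, had 3, 1 and 1 reads in si-NC and 20, 1 and 14 in si-*Snhg18*. It was not tested over all libraries, and it was called higher without both libraries numbered 2 and without si-*Snhg18* 2 alone. The higher reads stood in libraries 1 and 3 and not in library 2, and the si-NC reads were at the floor.

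Calcium-activated pores were not called: 0 of 3 tested members in either fit. All 3 fold changes were below 0 (median log2 -0.41), beside 7147 of all 14531 tested genes. No direction of the class is read from 3 members, and the log2 fold change of *Kcnn4* was 0.02 without both libraries numbered 2. *Kcnn4*, the intermediate-conductance channel that is found in proliferating rather than contractile smooth muscle, made up 87.8 to 93.9% of the class's level per kilobase. It measured 10.3, 12.5 and 8.85 CPM in si-NC and 10.5, 7.77 and 8.93 CPM in si-*Snhg18*, overlapping, with a log2 fold change of -0.22 (95% interval -0.66 to 0.22, edgeR adjusted p 0.51). *Kcnn1*, a small-conductance channel, had -0.41 (0.612). *Kcnma1*, the large-conductance channel of contractile vascular muscle, had 0 reads in all 6 libraries over an exon length of 12094 bases, and 3 reads of the 140942821 in all would allow up to 0.0213 CPM. An antisense gene overlapping it, *4930519K11Rik*, was also at 0. *Kcnmb1*, the accessory subunit of the same channel, had 6 to 14 reads per library and a log2 fold change of -0.29 (0.721).

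Among the accessory subunits 1 of 6 tested members rose. *Kcne4* (ENSMUSG00000047330, chr1:78816758-78820028, plus strand), a single-span subunit that reduces or alters the current of several voltage-gated pores, had the highest level per kilobase of the channel genes over the 6 libraries, though not in si-NC alone. It measured 39.4, 31 and 35.5 CPM in si-NC and 63.8, 46 and 68 CPM in si-*Snhg18*, without overlap. The log2 fold change was 0.75 (SE 0.17, 1.68-fold), with an edgeR adjusted p of 0.0488, close to the threshold, 0.00174 with the block, and 0.0068 to 0.192 when 1 library was left out. *Kcnab1* (ENSMUSG00000027827, chr3:64949196-65378223, plus strand), a cytoplasmic beta subunit that speeds inactivation of *Kcna* pores, measured 20.1, 31.4 and 18.5 CPM in si-NC and 7.83, 24.1 and 12.4 CPM in si-*Snhg18*. Each group was highest in library 2, and the groups overlapped. Its log2 fold change was -0.66 (SE 0.42, edgeR adjusted p 0.384), -0.75 with the block (0.0223) and -0.95 without both libraries numbered 2 (0.0159). The related *Kcnab3*, named after its values were seen, had -0.83 (adjusted p 0.0941, 0.0517 with the block).

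Summed by class and per kilobase of deposited exon length, the levels shifted little in total, from 62.4 ± 1.66 in si-NC to 66.9 ± 4.45 CPM per kb in si-*Snhg18* (SD, n = 3). The total includes the accessory sum, whose log2 ratio was 0.17 with these lengths and 0.52 with GENCODE vM21 lengths. The voltage-gated class stood at 8.96 ± 0.112 and 12.8 ± 2.3, and the inward rectifiers at 10.3 ± 2.03 and 6.86 ± 1.0, without overlap between the groups in either. Two-pore channels had 7.01 ± 0.643 and 8.36 ± 1.32, calcium-activated pores 6.07 ± 1.06 and 5.15 ± 0.643, and accessory subunits 27.4 to 33.0 in the si-NC libraries and 31.7 to 35.6 in the si-*Snhg18* libraries. These sums are led by few genes. *Kcnj15* gave 48.8 to 70.8% of the inward rectifier sum and *Kcne4* 35.4 to 75.8% of the accessory sum. In the voltage-gated sum, too, the share of the leading gene differed widely between libraries. The shift of that sum need not be shared across its class, and the sums carry no test of their own.

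**Figure D4:**
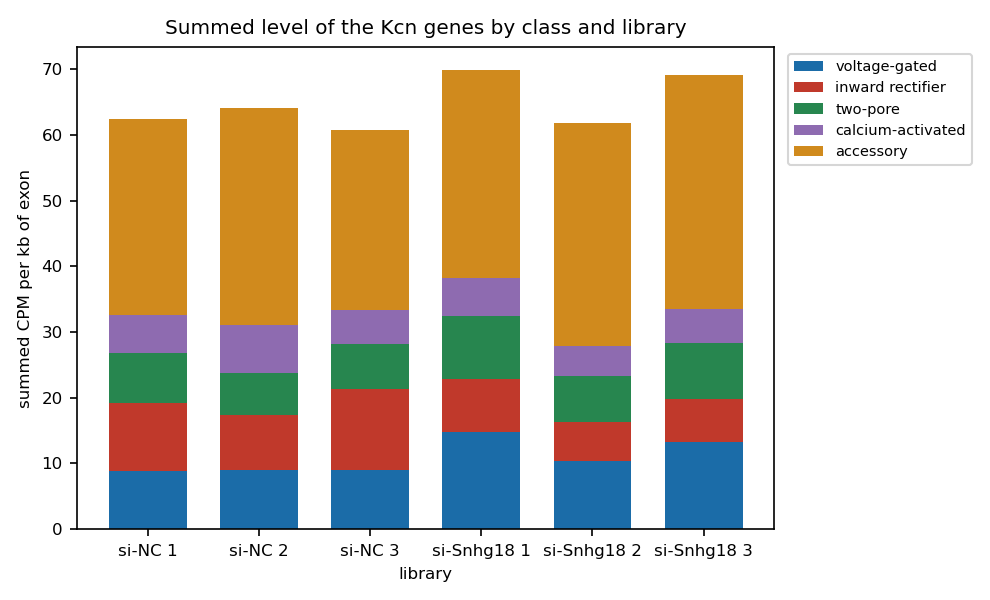
Bars give the summed CPM per kb of exon on the y axis for each of the 6 libraries on the x axis, stacked by class from voltage-gated at the bottom to accessory at the top. Voltage-gated parts are 8.84 to 9.06 in si-NC and 10.3 to 14.8 in si-*Snhg18*, and inward rectifier parts 8.28 to 12.3 and 6.07 to 7.99.

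Within 200 kb of each other lay 18 members in 8 clusters, of which 5 members were tested. In 3 clusters 1 gene stood well above its neighbours, and in the others no gene had more than 18 reads in any library. On chromosome 3, *Kcna3* had 67 to 112 reads while *Kcna2* had 0 to 2 and *Kcna10*, beside it, had 0. On chromosome 11 *Kcnj2* had 102 to 236 reads and *Kcnj16* had 0, and on chromosome 14 *Kcnk5* had 43 to 123 reads and *Kcnk16* had 0. *Kcna10*, *Kcnj16* and *Kcnk16* were named after their values were seen.

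Outside the *Kcn* symbols, a list of 17 channel partners and related channels was examined, of which 8 were tested and 1 was called, higher. With the block, 1 further partner was higher, the lysosomal channel *Tmem175*, named after its values were seen. Its log2 fold change was 0.47 in that fit (edgeR adjusted p 0.0158) and 0.48 without the block (0.357). The groups overlapped in CPM, and without both libraries numbered 2 *Tmem175* had 0.42 (0.0511), outside the threshold. *Tmem38b*, a potassium channel of the sarcoplasmic reticulum and the highest of the list per kilobase of exon, had -0.05 (0.947). Of 11 sodium-potassium pump subunits, which build the potassium gradient, 9 were tested and 0 were called without the block, and 1 was lower with it.

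Reads of opposite strands may be divided between genes where the counting did not use strand, which is not stated. For the called members described here the genes that overlap their exons on the other strand had few reads: 0 to 1 for *Gm49643* at *Kcnj15*, 0 to 2 for *A430027H14Rik* at *Kcnk2* and 0 to 10 for *A330015K06Rik* at *Kcnab1*.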

How the data were processed

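RNA libraries of mPASMCs, 3 si-NC and 3 si-*Snhg18*, were prepared with a TruSeq Stranded mRNA kit, and the authors deposited 1 table of whole-number read counts per gene with exon lengths and GRCm38 positions, without normalization. The submitters' processing notes name HISAT2 and mm10, and the counting program, its strand setting and any filter are not given in the sources used here. Groups and library numbers came from the sample labels, and 0 columns of counts belonged to no sample.

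The edgeR package (4.0.16, under R 4.3.3) was used for the tests. Its filterByExpr function, set to a minimum count of 10, left 14531 genes. These were scaled by TMM, and the groups were tested by quasi-likelihood (glmQLFit, then glmQLFTest). P-values were adjusted by Benjamini-Hochberg across all of the genes left, at a threshold of 0.05. The common biological coefficient of variation was 0.218. The scripts were tested on simulated data. A floor of 3 reads covers counting error only. Promoter windows come from RefSeq on GRCm38, with 250 bases before the start, and 68 members matched.

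The members and lists were chosen with earlier results of these data known. Genes named are members called in the fit with or without the block, the 2 most abundant tested members of each class per kilobase of exon, a list of channels known from the pulmonary artery, *Snhg18*, and, of the partner and pump lists, called genes and the most abundant one per kilobase. Other genes were named after their values were seen. Some genes that this rule names are not reported here, although the counts include them.

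The pairing of libraries comes from the numbers in the labels. The correlations of deviations from the group means were 0.41, 0.742 and 0.359 for the same-numbered libraries 1, 2 and 3. Between numbers, si-NC 3 with si-*Snhg18* 1 had 0.497 and si-NC 1 with si-*Snhg18* 3 had 0.186, and the other pairs were negative, so that libraries 1 and 3 are not told apart by this check. The fit with the library number as a replicate block is given beside the fit without it where the call changes. Alternatives were DESeq2 1.42.0, RLE factors, library totals, limma-voom (limma 3.58.1), other count minimums, no division by exon length and leaving out each library. DESeq2 with the block, the fit without both libraries numbered 2 and GENCODE vM21 exon lengths were added after seeing the data.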

Additional observations from a re-analysis of the deposited data

How the results depend on the processing

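Over all genes, 1069 calls became 2124 with DESeq2, 3954 with the replicate block, 3166 with DESeq2 and the replicate block, 4020 without both libraries numbered 2, and 0 to 3282 when 1 library was left out. For the channel genes, 4 calls became 9 with the replicate block, 8 without both libraries numbered 2 and 0 to 8 when 1 library was left out. Higher calls ranged from 0 to 6 when 1 library was left out, and lower calls, 0 without the block, were 3 with the replicate block, 2 with DESeq2 and the replicate block, 2 without both libraries numbered 2, 1 with DESeq2, library totals or a minimum count of 30, and 0 to 2 when 1 library was left out. At an unadjusted p under 0.05, 8 of the 29 tested members passed (24.9% of all genes). RLE factors, limma-voom and a minimum count of 5 each dropped *Kcne4* from the calls, and no filter on low counts dropped *Kcnh1*. DESeq2 with the replicate block called neither *Kcnj8* nor *Kcnk2*. Among the channel genes, the replicate block changed no call besides those in the text.

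The log2 fold change of *Snhg18* was -1.14 to -1.06 when 1 library was left out, and it missed the threshold in 3 of those 6 fits. The log2 ratio of the accessory class sum was 0.17, 0.30 without division by exon length and 0.52 with GENCODE vM21 lengths. Values near 0 changed sign: *Kcnh2* to 0.01 with limma-voom and with DESeq2 and the replicate block, to 0.10 without both libraries numbered 2, and to 0.03, 0.04 and 0.21 when 1 library was left out (range -0.14 to 0.21); *Kcnn4* to 0.02 without both libraries numbered 2; and, when 1 library was left out, *Kcnk5* to -0.12 (range -0.12 to 0.59), *Kcnj2* to 0.02 (-0.47 to 0.02), *Kcna3* to -0.05 (-0.05 to 0.51) and *Tmem38b* to 0.06, 0.10 and 0.22 (-0.30 to 0.22). The cause of these changes was not tested. Depth limits the 64 members untested over all libraries, of which *Kcnk3* was called only in fits that left out si-*Snhg18* 2, with or without si-NC 2.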
